A study of Equus caballus with 24 samples.

Results

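The genes described here serve the gonadotrophs and the thyrotrophs, the endocrine cells of the anterior pituitary that make the gonadotropins and thyroid stimulating hormone (TSH). The 8 genes FSHB, CG (the common alpha subunit, CGA), TSHB, GNRHR, TRHR, SF-1 (NR5A1), ESR1 and GATA2 were taken from the 24232 genes of the count table by an exact match of their symbol, and each symbol matched 1 gene model. They were followed in 24 libraries of total RNA, depleted of ribosomal RNA, from the pituitary and the epiphysis, or end piece, of long bones of female Debao ponies (DPs), a small breed, and female Mongolian horses (MHs). Horses under 3 years were juvenile and older ones adult. The groups are DPPJ and DPPA (juvenile and adult DP pituitary), MHPJ and MHPA (the same of MHs), DPLBJ and DPLBA (juvenile and adult DP long bone) and MHLBJ and MHLBA (the same of MHs), with 3 libraries each. The study's methods name 12 horses, 6 of each breed, as the source of both tissues, so the tissues do not come from separate animals. No animal was treated, and the labels do not say whether a pituitary and a long bone library with the same number came from the same horse. Nor do they say more of the replicates than that they are separate samples, so p-values measure the spread between these samples.

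All glycoprotein hormones of the pituitary share the alpha subunit, which pairs with a specific beta subunit: FSHB for follicle stimulating hormone, LHB for luteinizing hormone and TSHB for TSH. Gonadotropin release is driven by hypothalamic GnRH through its receptor GNRHR on gonadotrophs, and TSH release by TRH through TRHR, which thyrotrophs carry and lactotrophs carry as well. SF-1 is a nuclear receptor that marks gonadotrophs among pituitary cells, ESR1 is the estrogen receptor alpha that mediates estrogen feedback and is also used by other pituitary cells and by bone, and GATA2 is a transcription factor of both lineages that blood cell precursors use too. The gene identifiers were ENSECAG00000018841 for CG, ENSECAG00000019116 for FSHB, ENSECAG00000012981 for TSHB, ENSECAG00000005763 for GNRHR, ENSECAG00000023156 for TRHR, ENSECAG00000013752 for SF-1, ENSECAG00000022441 for ESR1 and ENSECAG00000016768 for GATA2. Their lengths in the files ran from 366 bases for CG to 3750 bases for ESR1, so levels of different genes are compared only as RPKM, reads scaled by gene length and by library size. A separate gene model without a symbol, described as a follitropin beta subunit, held 1 read in all 24 libraries, so reads of FSHB were not divided between both models to a measurable extent.

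The libraries held between 11433209 and 27007342 reads on genes, and 1 read of a gene as short as GNRHR (560 bases) was worth about 0.08 RPKM in MHPJ replicate 1. All 3 MHPJ libraries and MHPA replicate 1 stood apart from the other pituitary libraries, and DPPA replicate 1 lay in between. GH, the growth hormone gene and a defining marker of the anterior lobe, had 0, 41 and 2 reads in MHPJ and 5 reads in MHPA replicate 1, with 142 reads in DPPA replicate 1, against 97101 to 494087 reads in the other 7 pituitary libraries. PRL (prolactin) had 3, 11 and 0 reads in MHPJ, and POMC, the corticotroph and melanotroph precursor, had 0, 32 and 0. The summed RPKM of 10 markers of other anterior lobe cells was 37653 to 50230 in DPPJ, 2689 to 46405 in DPPA, 64.2 to 37078 in MHPA and 112 to 1050 in MHPJ. The sum of 13 markers of the posterior lobe, glia and nerve ran mostly the other way, with 360 to 4076 in DPPJ, 301 to 9608 in DPPA, 349 to 14498 in MHPA and 5286 to 7099 in MHPJ. Not every library or marker followed this. DPPJ replicate 2 was high in both sums (41021 and 4076). The MHPJ sum held much RNA of the myelin gene MBP (2993, 2379 and 2101 RPKM). The posterior lobe hormone gene AVP had 1, 0 and 1 reads in MHPJ and 6 in MHPA replicate 1, against 22751 in DPPA replicate 1. OXT, another such gene, had 0 reads in MHPJ and 120 in DPPA replicate 1. In MHPJ, between 0 and 3 of the 10 anterior markers and between 1 and 3 of the 13 posterior, glial and nerve markers were at 0 reads. Markers of 3 intermediate lobe genes summed to 27.9 to 72.9 RPKM in DPPJ and 1.24 to 26.3 in MHPJ, 6 marrow blood cell markers to 17.7 to 31.5 and 17.95 to 76.5 RPKM, and 9 bone and cartilage markers to 33.2 to 146 and 138 to 440 RPKM. In these tissue samples, fewer cells of a type and less RNA per cell cannot be told apart, and in MHPJ the low content of anterior lobe RNA cannot be told apart from breed and stage.

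**Figure D1:**
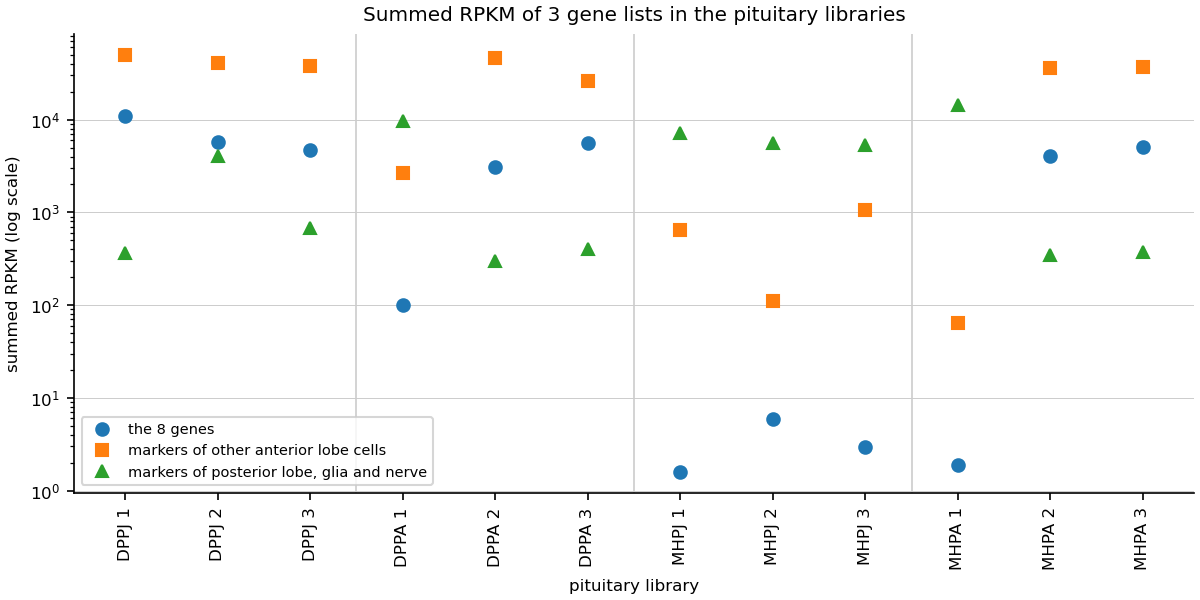
Summed RPKM (log scale) in each of the 12 pituitary libraries for the 8 genes (circles), 10 markers of other anterior lobe cells (squares) and 13 markers of the posterior lobe, glia and nerve (triangles). The 8 genes summed to at most 5.85 RPKM in MHPJ replicates 1 to 3 and to 1.88 RPKM in MHPA replicate 1, where the sum of the anterior markers was also low and that of the posterior, glial and nerve markers high. That last sum was also high in DPPA replicate 1 and DPPJ replicate 2.

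Among the hormone subunits, CG was the most abundant of the 8 genes in every DPPJ library, at 10395, 5265 and 4186 RPKM. It had 90.7, 2915 and 5397 RPKM in DPPA, 0, 2.02 and 0 RPKM in MHPJ and 0.27, 3530 and 4736 RPKM in MHPA. Replicate 1 was the low library in both adult groups, and only replicate 2 of MHPJ held reads of CG. FSHB had 537, 338 and 510 RPKM in DPPJ, which was above all 3 DPPA libraries (0.07, 134 and 80.9 RPKM). In MHPJ, FSHB came to 1 read in all 3 libraries together, and in MHPA it had 0, 434 and 158 RPKM. TSHB was lower than FSHB and more uneven within groups, at 7.47, 19.5 and 8.42 RPKM in DPPJ, 0, 1.58 and 37.7 RPKM in DPPA and 0, 10.1 and 64.2 RPKM in MHPA. No read of TSHB was counted in any MHPJ library.

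The partner subunit LHB, found by its description because the files give it no symbol, had 235, 77.7 and 54.3 RPKM in DPPJ and 1.01, 82.1 and 47 RPKM in DPPA. LHB was the least depleted subunit in the libraries that stood apart, with 15, 54 and 16 reads in MHPJ and 65 reads in MHPA replicate 1, where FSHB had 0 and CG 2 reads. In MHPA replicates 2 and 3 it had 68.2 and 26.4 RPKM.

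Both hypothalamic hormone receptors were expressed at a few RPKM. GNRHR, the receptor of GnRH, had 4.11, 2.78 and 2.54 RPKM in DPPJ (56, 41 and 41 reads), 0, 1.71 and 1.68 RPKM in DPPA, and 0, 3.28 and 2.64 RPKM in MHPA, with 1, 1 and 0 reads in MHPJ. The receptor of TRH, TRHR, had its highest levels in MHPA replicates 2 and 3, at 13.8 and 24.8 RPKM, while MHPA replicate 1 had 0. It had 5.89, 3.14 and 4.65 RPKM in DPPJ, 0.44, 5.5 and 6.19 RPKM in DPPA and 0.03, 0.09 and 0.27 RPKM in MHPJ. The hypothalamic ligands themselves were detected unevenly: TRH had 4, 164 and 2 reads in DPPJ, 404, 0 and 0 in DPPA, 380, 0 and 37 in MHPJ and at most 3 in MHPA, and GNRH1 had at most 58 reads, in DPPA replicate 1.

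Of the 3 transcription factors, SF-1 was the most even within DPPJ, at 20.7, 19.3 and 18.3 RPKM. It had 0.45, 17.6 and 10.9 RPKM in DPPA, 0.12, 0.06 and 0.21 RPKM in MHPJ and 0.09, 17.2 and 20.7 RPKM in MHPA. ESR1 was also low in replicate 1 of both adult groups and in MHPJ, with 11.9, 10.5 and 11.2 RPKM in DPPJ, 1.65, 7.93 and 7.22 in DPPA, 0.1, 0.13 and 0.19 in MHPJ and 0.09, 13.6 and 11.3 in MHPA. GATA2 was detected in every library and varied least of the 8, with 7.24, 9.39 and 13.6 RPKM in DPPJ, 5.8, 4.93 and 27.8 in DPPA, 1.26, 3.32 and 2.25 in MHPJ and 1.43, 4.97 and 9.09 in MHPA. DPPA replicate 1, the lowest of its group for the other 7 genes, was not the lowest for GATA2, while MHPA replicate 1 was the lowest library of its group.

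**Figure D2:**
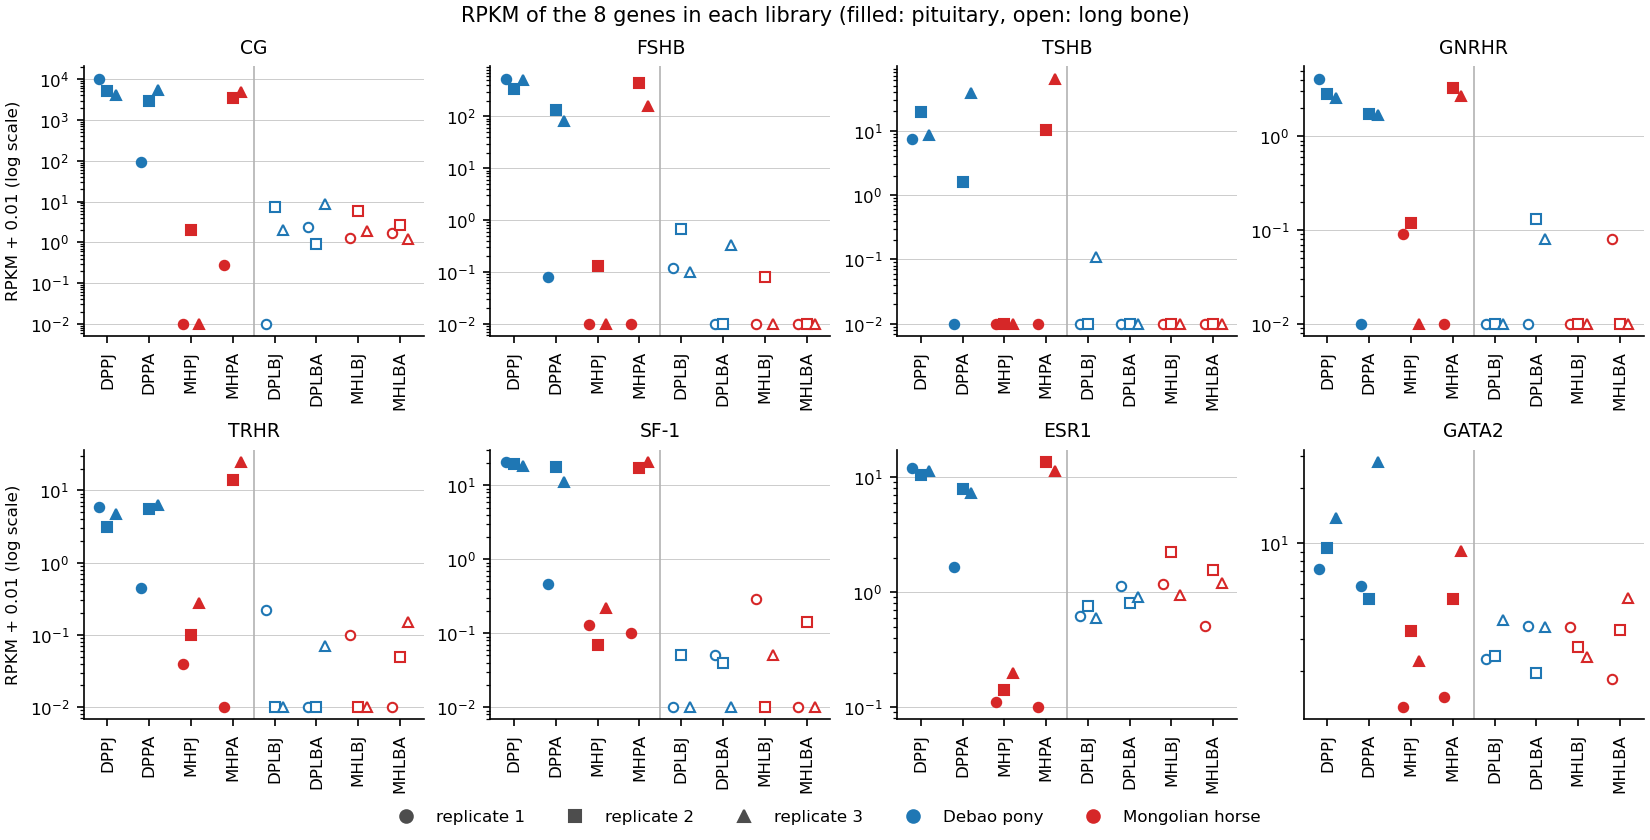
RPKM + 0.01 (log scale) of each gene in every library, by group, with filled symbols for the pituitary, open symbols for the long bone, blue for Debao ponies and red for Mongolian horses; symbol shape gives the replicate. The MHPJ libraries, MHPA replicate 1 and DPPA replicate 1 lie far below the other 7 pituitary libraries for FSHB, CG, TSHB, GNRHR, TRHR and SF-1, and for ESR1 the MHPJ libraries and MHPA replicate 1 lie below every long bone library (at most 0.19 RPKM against 0.5 or more).

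In the order of group means, DPPJ came first for CG (6615 ± 3318 RPKM, SD, n = 3), FSHB (462 ± 108), GNRHR (3.14 ± 0.85), SF-1 (19.4 ± 1.18) and ESR1 (11.2 ± 0.72). MHPA came first for TSHB (24.8 ± 34.5 RPKM) and TRHR (12.9 ± 12.4), and DPPA for GATA2 (12.8 ± 13). For most genes the large SDs of the adult groups come with the low replicate 1 in each. For TSHB, replicate 3 was also high (37.7 RPKM in DPPA and 64.2 in MHPA). GATA2 in DPPA differed, with 5.8, 4.93 and 27.8 RPKM in replicates 1 to 3. DPPJ, DPPA and MHPA overlapped as neighbours in the order of all 8 genes. For TSHB, TRHR and SF-1 the lowest of these 3 groups was the only one set apart from the next group below it, without overlap of their libraries. For ESR1, DPLBA (0.94 ± 0.17) was apart from DPLBJ (0.65 ± 0.09), and DPLBJ from MHPJ (0.14 ± 0.05). MHPJ had the lowest mean of all 8 groups for CG, ESR1 and GATA2. No other neighbours in these orders were apart.

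Whether the breeds differ in the juvenile pituitary was asked with edgeR's quasi-likelihood test over 14603 genes, and a gene was taken as a differentially expressed gene (DEG) when it changed more than 2-fold with P under 0.05 before adjustment. All 8 genes were DEGs and higher in DPPJ than in MHPJ, against 7.6% of all tested genes that were DEGs in this direction. Their 3 DPPJ libraries all lay above the 3 MHPJ libraries, as did those of 22.8% of all tested genes. Of the 8, 7 reached the level of the filter on low counts in all 3 libraries of DPPJ only, so that their count follows partly from the filter, and GATA2 alone reached it in every library of both groups. The adjusted p (Benjamini-Hochberg, all tested genes, edgeR) was under 0.05 for 7 of them, against 10.7% of all tested genes. When all pituitary libraries were fitted together it was under 0.05 for 1 of them, ESR1 (0.047), against 3.16% of all genes tested there, with 0.0501 to 0.125 for the other 7. With a replicate block it was under 0.05 for 0 genes, though all 8 were still DEGs.

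For the subunits the difference was limited by counting, since MHPJ held 0 to 12 reads. CG was higher in DPPJ by 13.20 ± 1.77 on the log2 scale (SE, adjusted p = 0.0175), from 187576 reads in DPPJ and 12 in MHPJ. All 12 were in MHPJ replicate 2, and without that library the value fitted against 0 reads was 18.85. Without MHPJ replicate 1 or 3 it was 12.50 or 12.58. FSHB had 18429 reads against 1, a ratio of 12857 with a 95% counting interval from 2307 to 507863 (adjusted p = 0.00407). TSHB had 413 reads against 0 and was at least 30.8-fold higher, with 3 reads per library as the floor (adjusted p = 0.0231). These intervals and bounds cover counting error only.

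The receptors and transcription factors moved in the same direction. GNRHR had 138 reads in DPPJ and 2 in MHPJ, a ratio of 48.1 (interval 13.1 to 401, adjusted p = 0.0193), and TRHR was higher by 4.85 ± 0.78 (log2, adjusted p = 0.0236), or by 6.02 without MHPJ replicate 3. SF-1 was higher by 6.95 ± 0.44 (adjusted p = 0.00621) and ESR1 by 6.08 ± 0.34 (adjusted p = 0.00407). GATA2 differed least, by 1.92 ± 0.46, and its adjusted p of 0.0527 was above 0.05. The 10 markers of other anterior lobe cells, the list of which includes genes that other neuroendocrine cells also use, moved with them. Of these, 8 were DEGs higher in DPPJ and 0 lower, against 7.6% higher and 12.7% lower of all tested genes. PRL at 14.85 ± 1.48, GH at 13.72 ± 2.14 and POMC at 11.97 ± 2.25 were the largest, fitted against 0 to 41 reads in each MHPJ library. The list median was 5.72 against −0.07 over all tested genes. Of the 9 posterior, glial and nerve markers that were tested, 1 was higher (OTX2, 3.6 ± 1.15) and 1 lower in DPPJ (MBP, a myelin gene, −2.58 ± 0.91), with a median of −2.30. Of 6 bone and cartilage markers tested, 2 were lower (SP7, −3.90 ± 1.03, and RUNX2, −3.55 ± 0.43), of 4 marrow blood cell markers 1 was lower (TAL1, −1.63 ± 0.50), and of 3 intermediate lobe markers 1 was higher (PAX7, 3.95 ± 0.73). The part of these cells in the differences of the 8 genes was not tested.

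Other genes of the same lineages were read from lists. Of 15 further hormone and regulator genes of gonadotrophs and thyrotrophs, 14 were tested. Of these, 8 were DEGs higher in DPPJ, against 7.6% of all tested genes, and 0 were lower, and 6 passed the adjusted p, against 10.7%. The median log2 difference of the 14 was 3.93 against −0.07 over all tested genes. Among the largest were POU1F1, the factor of the thyrotroph, somatotroph and lactotroph lineages, with 10333 reads against 3 (ratio 2403, interval 822 to 11654), and LHX3, a LIM homeobox factor of the anterior lobe, with 1846 reads against 2 (ratio 644, interval 178 to 5321). LHB was higher by 5.13 ± 1.02 (adjusted p = 0.0352). Of 23 genes of hormone signalling to these cells (G protein and calcium signalling, activins and inhibins, steroid and thyroid hormone receptors), 0 were higher and 6 lower in DPPJ, 3 of them at an adjusted p under 0.05, against 12.7% of all tested genes that were lower DEGs. The list median was −0.28. The 3 largest were ITPR3, a calcium channel of the endoplasmic reticulum (−4.30 ± 1.40), INHBA, the activin beta A subunit (−3.76 ± 0.80), and TRHDE, the ectoenzyme that degrades TRH (−2.95 ± 1.13). Of the hypothalamic hormones and target organ receptors, 3 of 7 were tested and 0 were DEGs by edgeR, with 0 at an unadjusted P under 0.05.

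In the adult pituitary, 0 of the 8 genes were DEGs between DPPA and MHPA, against 2.93% of all tested genes, and 0 had an unadjusted P under 0.05. DESeq2 also gave 0. The log2 differences (DPPA minus MHPA) were −1.22 ± 2.26 for FSHB, 0.22 ± 2.15 for CG, −0.79 ± 2.22 for TSHB, −0.59 ± 1.55 for GNRHR, −1.46 ± 1.69 for TRHR, −0.16 ± 1.59 for SF-1, −0.34 ± 1.31 for ESR1 and 1.47 ± 0.84 for GATA2, with adjusted p from 0.648 to 0.981. The sign of CG turned without TMM normalization (−0.01). These SEs include the low replicate 1 of each group. With the replicate number as a block, 2 genes were DEGs, FSHB (−1.05 ± 0.32) and GATA2 (1.35 ± 0.40), both with an adjusted p of 0.342, against 4.12% of all tested genes. The number does not pair animals, as the breeds are different horses, and replicate 1 was the low library of both groups. Without DPPA replicate 1 and MHPA replicate 1, a choice made after their reads were seen, 2 were DEGs as well, FSHB (−1.24 ± 0.48, adjusted p = 0.201) and TRHR (−1.54 ± 0.32, adjusted p = 0.0754), against 6.02% of all tested genes. GATA2 was then 1.36 ± 0.73, below the call, and CG 0.18 ± 0.30. Of the regulator list, 1 gene was a DEG, ISL1, a LIM homeobox factor of gonadotrophs and thyrotrophs, at 2.56 ± 0.89. It had 559, 147 and 888 reads in DPPA and 17, 73 and 129 in MHPA. TSHR, the TSH receptor, was higher in DPPA by 3.54 ± 1.08 as the 1 tested gene of its list, with 133, 9 and 152 reads in DPPA and 4, 11 and 5 in MHPA, and 0 of 22 signalling genes were DEGs. Among the markers of other cells, AVP, the vasopressin gene of the posterior lobe, was higher in DPPA (7.88 ± 2.87) through replicate 1, with 22751, 53 and 42 reads against 6, 55 and 20 in MHPA, and its part in the other differences was not tested.

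Between the stages of DPs, 0 of the 8 genes were DEGs either, by edgeR or by DESeq2, and 0 had an unadjusted P under 0.05, against 3.56% of all tested genes that were DEGs. FSHB was 2.61 ± 1.47 higher in DPPJ than in DPPA on the log2 scale (adjusted p = 0.485), GNRHR 1.40 ± 1.06 and ESR1 0.91 ± 0.50, and for these 3 genes every DPPJ library lay above every DPPA library on CPM (reads scaled to library size) with TMM scaling, as for 11.8% of all tested genes. CG differed by 1.20 ± 1.13, SF-1 by 0.92 ± 0.96, TRHR by 0.11 ± 0.80, TSHB by −0.17 ± 1.58 and GATA2 by −0.41 ± 0.64, all with overlapping libraries on that scale, while the RPKM of SF-1 did not overlap. Single libraries decided which gene was a DEG. Without DPPA replicate 1, FSHB became a DEG at 2.02 ± 0.32 (adjusted p = 0.230), and without DPPA replicate 3, TSHB did at 3.73 (adjusted p = 0.497). Of the lists, 0 regulator genes were DEGs, and in the signalling list FST, the activin antagonist follistatin, was lower in juveniles (−1.08 ± 0.39). TSHR (−3.49 ± 1.12) and LHCGR, the luteinizing hormone receptor (−2.05 ± 0.85), were lower in juveniles as well.

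Between the stages of MHs, only CG, ESR1 and GATA2 passed the filter on low counts, because MHPJ and MHPA replicate 1 together hold 4 libraries with few reads. CG was a DEG at −11.75 ± 3.54 (MHPJ minus MHPA, adjusted p = 0.382) and ESR1 at −5.53 ± 1.58 (adjusted p = 0.370), against 3.24% of all tested genes that were lower DEGs in juveniles. The share of DEGs that were higher in juveniles was 58.2%, and 47.2% without TMM normalization. GATA2, at −0.89 ± 0.69, was not a DEG. The libraries of both groups overlapped for all 8 genes through MHPA replicate 1, and neither DEG had an adjusted p under 0.05. The reads of the genes that were not tested came to 1 in MHPJ against 5767 in MHPA for FSHB (ratio 5391, interval 967 to 212957), 0 against 622 for TSHB (at least 61.3-fold), 2 against 64 for GNRHR (ratio 29.9, interval 7.95 to 252), 11 against 985 for TRHR and 9 against 787 for SF-1. In MHPA these reads came from replicates 2 and 3, except 2 reads of SF-1. CG was −17.18 without MHPJ replicate 2, a fit against 0 reads, and was no DEG without MHPJ replicate 1 (−11.08) or 3 (−11.13); without MHPA replicate 1 it was −12.37 and without MHPA replicate 3 −11.07. Without MHPA replicate 1, 7 of the 8 genes were DEGs lower in juveniles, against 5.73% of all tested genes, and 3 had an adjusted p under 0.05. The 5 genes not tested in the full fit reached its filter level in no MHPJ library, so that this count follows partly from the filter. Of 10 regulator genes tested, 2 were lower in juveniles, among them LHB (−3.14 ± 1.06), while of 22 signalling genes 4 were higher, led by INHBA (3.91 ± 1.08), ITPR3 (3.70 ± 1.35) and PLCB1, a phospholipase C below the GnRH and TRH receptors (2.36 ± 0.59), against 4.5% of all tested genes that were higher DEGs. Of the 9 other anterior lobe markers tested 5 were lower in juveniles, again with PRL, GH and POMC the largest. Of 8 bone and cartilage markers 3 were higher in juveniles (COL2A1, 4.62 ± 1.87, ACAN, 3.62 ± 1.15, and RUNX2, 1.87 ± 0.56), of 3 intermediate lobe markers 1 was lower (PAX7, −5.11 ± 1.86), and of 10 posterior, glial and nerve markers 1 was lower (OTX2, −7.19 ± 1.35). Their part in the differences was not tested.

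The breed difference was larger in juveniles than in adults for 7 genes when the difference between both was tested over the 12 pituitary libraries, against 6.8% of all tested genes. Of all DEGs of this test 43.4% were higher, and 65.5% without TMM normalization. The values were 13.03 ± 3.43 for CG, 6.34 ± 2.22 for TRHR, 7.14 ± 2.09 for SF-1 and 6.45 ± 1.64 for ESR1, all with an unadjusted P under 0.05. FSHB (14.46), TSHB (10.67) and GNRHR (5.98) passed too, but their fitted values depend on how 0 to 2 reads in MHPJ are treated. GATA2 did not pass, at 0.51 ± 1.01. None of the 7 had an adjusted p under 0.05 by edgeR (0.153 to 0.230), while by DESeq2 6 did, against 8.44% of all genes tested there. TRHR was not called by limma with either pseudocount (3.11 and 4.72), nor TSHB by limma on log2(RPKM + 1) (4.51) and in 8 of the 12 fits that left out 1 library. With 1 library left out CG ran from 12.36 to 18.59, the highest without MHPJ replicate 2, TSHB from 8.35 without MHPA replicate 3 to 14.55 without DPPA replicate 3, TRHR from 5.41 without MHPA replicate 3 to 7.52 without MHPJ replicate 3, and SF-1 up to 8.0 without DPPA replicate 2. FSHB ran from 13.19 without MHPA replicate 2 to 16.63 without MHPJ replicate 2. Without DPPA replicate 1 and MHPA replicate 1, the same 7 genes passed, against 7.61% of all tested genes, and 6, against 3.41%, had an adjusted p from 0.00164 to 0.0199, TSHB being the exception at 0.0979. That choice was made after their reads were seen and took low libraries from the adults only, with the low MHPJ libraries kept. Its p-values therefore add no support to those of the full fit. The juvenile and the adult comparison share no library, while the breed and the stage comparisons do share theirs.

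**Figure D3:**
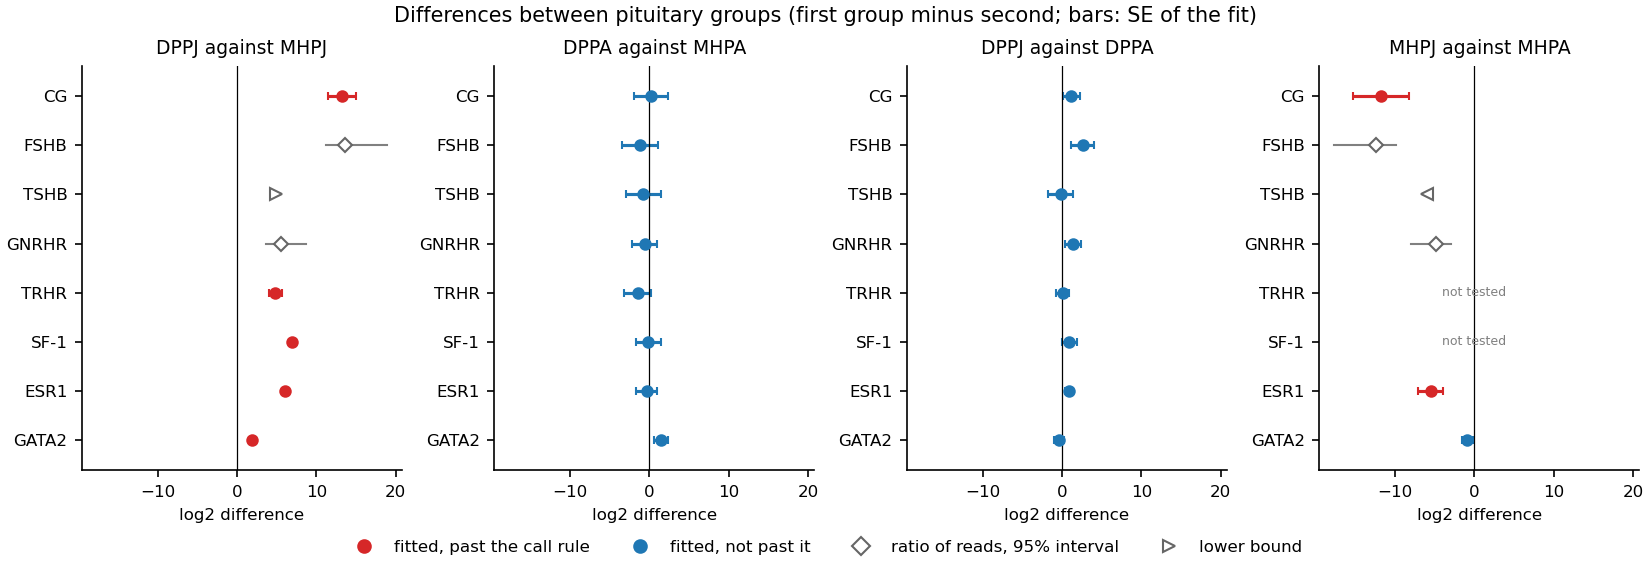
Differences of the 8 genes between pituitary groups on the log2 scale, first group minus second. Circles are fitted values with their SE (red where the gene was a DEG), diamonds are ratios of reads with a 95% counting interval and triangles are lower bounds where a group had 0 reads; all 8 genes lie to the right in DPPJ against MHPJ, while in DPPA against MHPA and DPPJ against DPPA none was a DEG.

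The balance between the hormones was read within libraries, using those with at least 20 reads of both genes. This left 7 pituitary libraries, DPPJ replicates 1 to 3 and replicates 2 and 3 of DPPA and MHPA. The ratio of ESR1 to SF-1 (both in RPKM) was the steadiest, from 0.45 to 0.79, a range of 1.75-fold. FSHB over GNRHR ran from 48.2 to 201 and FSHB over LHB from 1.63 to 9.40. The ratios to TSHB were the least steady: FSHB over TSHB ran from 2.15 to 84.9, a range of 39.6-fold, and TRHR over TSHB from 0.16 to 3.48. Both upper ends were in DPPA replicate 2, which had 21 reads of TSHB. TSHB took 0.96%, 4.48% and 1.47% of the RPKM of the 3 beta subunits in DPPJ, 0.73% and 22.8% in DPPA replicates 2 and 3 and 1.97% and 25.8% in MHPA replicates 2 and 3. Replicate 3 of both adult groups therefore had the high share of TSHB, and both were outside the range of DPPJ. FSHB took 48.8% to 89.1% and LHB 9.47% to 37.7%. The alpha subunit exceeded the 3 beta subunits together in all 7 libraries, by 6.89-fold (MHPA replicate 2) to 32.6-fold (DPPA replicate 3).

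**Figure D4:**
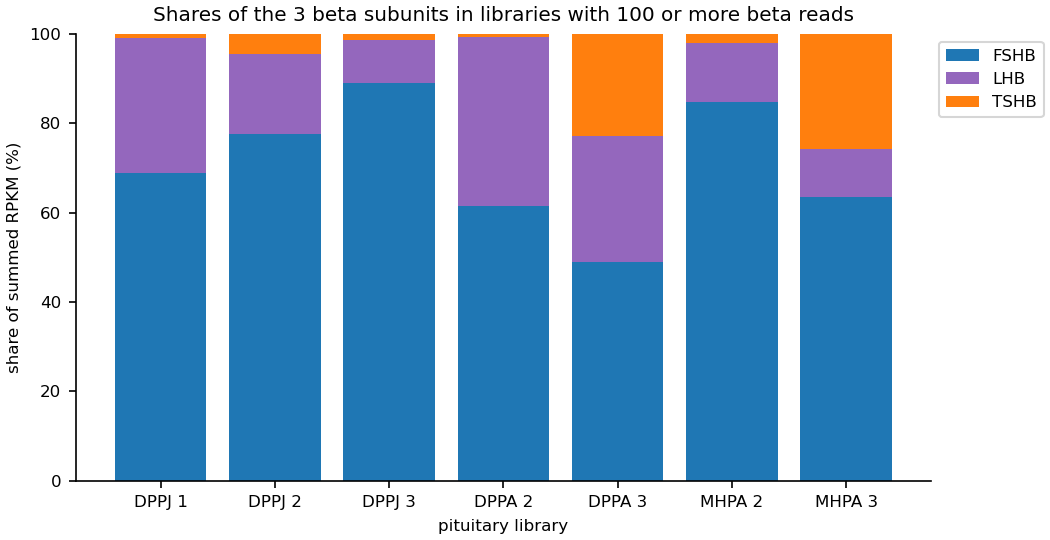
Share of FSHB, LHB and TSHB in the summed RPKM of the 3 beta subunits (%), in the 7 pituitary libraries with at least 100 reads of these genes. FSHB was the largest share in each, and TSHB reached 22.8% in DPPA 3 and 25.8% in MHPA 3 against at most 4.48% in the others.

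In the long bone, the endocrine genes were near 0. TSHB had 1 read in all 12 libraries together, GNRHR at most 2, TRHR at most 5, SF-1 at most 5 and FSHB at most 7 reads in a library. CG had 0 to 77 reads, at 0 to 8.46 RPKM, and its highest libraries were DPLBA replicate 3 (77 reads), MHLBJ replicate 2 (60) and DPLBJ replicate 2 (56). GH had 429, 56 and 137 reads in the same 3 libraries against 4 to 70 in the other 9, and DPLBA replicate 3 also had 700 reads of POMC. Its part in the reads of CG was not tested. ESR1 and GATA2 were expressed in every long bone library, at 0.5 to 2.23 RPKM (41 to 239 reads) and 1.81 to 4.98 RPKM (71 to 199 reads). The ratio of ESR1 to GATA2 was 0.16 to 0.83 in the 12 long bone libraries and 0.26 to 2.73 in the 8 pituitary libraries with enough reads.

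Only CG, ESR1 and GATA2 were tested in the long bone, and 0 of the 3 were DEGs in any of the 4 comparisons, nor did any have an unadjusted P under 0.05, by edgeR, and DESeq2 called 0. The share of all tested genes that were DEGs was 13.8% between DPLBJ and MHLBJ, 18.3% between DPLBA and MHLBA, 3.14% between DPLBJ and DPLBA and 2.91% between MHLBJ and MHLBA. ESR1 came nearest between the juveniles, at −1.0 ± 0.48 (DPLBJ minus MHLBJ, adjusted p = 0.327), with 41, 58 and 51 reads in DPLBJ and 74, 239 and 90 in MHLBJ. It became a DEG without TMM normalization (−1.21) and in the fit of all long bone libraries (−1.05), and its adjusted p was then 0.213 and 0.206. Between the adults ESR1 differed by −0.22 ± 0.40. GATA2 differed by 0.12 ± 0.36 between the juveniles (−0.09 without TMM normalization) and by −0.22 ± 0.39 between the adults. ESR1 differed between the stages by −0.48 ± 0.43 in DPs and 0.33 ± 0.45 in MHs, and GATA2 by −0.03 ± 0.41 and −0.34 ± 0.33. CG had log2 differences from −0.20 to 0.89 with SEs from 0.72 to 1.31. Of the same 3 genes, 0 differed in the breed difference between the stages, against 4.17% of all genes tested for it.

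Between the tissues, all 8 genes were DEGs and higher in DPPJ than in DPLBJ, against 18.3% of all tested genes. Of the 8, 6 reached the filter level in every library of DPPJ only, so that this count follows partly from the filter. Of all DEGs of this comparison 49.7% were higher in the pituitary, and 64.3% without TMM normalization. CG was higher by 10.74 ± 1.53, FSHB by 10.30 ± 0.74 and TRHR by 5.78 ± 1.17 on the log2 scale. The 5 reads of TRHR in DPLBJ were all in replicate 1, and the value was 10.15 without it and 5.12 without replicate 3. Without DPLBJ replicate 2, CG was at 12.37 and FSHB at 11.84. SF-1 had 1658 reads against 1 (ratio 1089, interval 195 to 43026), TSHB 413 against 1 (ratio 271, interval 48.4 to 10737) and GNRHR 138 against 0 (at least 10.1-fold). ESR1 was higher by 3.82 ± 0.27 (adjusted p = 3.44e-04) and GATA2 by 1.55 ± 0.34 (adjusted p = 0.0151). In the adult DPs, 5 genes could be tested and all were higher in DPPA than in DPLBA, against 19.6% of all tested genes, though 3 of the 5 reached the filter level in every library of DPPA only. CG was higher by 9.31 ± 1.69 (10.57 without DPLBA replicate 3 and 8.5 without DPPA replicate 3), ESR1 by 2.42 ± 0.55 and GATA2 by 1.93 ± 0.66 (adjusted p = 0.052). TRHR had 450 reads against 2 (ratio 186, interval 51.3 to 1544) and SF-1 had 890 against 2 (ratio 369, interval 102 to 3050). Without DPPA replicate 1 all 8 could be tested and were DEGs, against 19.6% of all tested genes. The 3 genes added reached the filter level of the full fit in no DPLBA library, so that this count also follows partly from the filter. Without DPPA replicate 3 GATA2 was not a DEG, at 0.80.

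In the juvenile MHs the tissue difference of ESR1 was in the other direction, in libraries with few anterior lobe reads (GH at 0, 41 and 2 in MHPJ). MHPA replicate 1, also poor in such reads, had 0.09 RPKM of ESR1, against 13.6 and 11.3 in MHPA replicates 2 and 3. The part of the anterior lobe content in this difference was not tested. ESR1 was lower in MHPJ than in MHLBJ by 3.26 on the log2 scale (−3.26 ± 0.54, adjusted p = 0.0125), with 9, 8 and 16 reads in MHPJ and 74, 239 and 90 in MHLBJ, against 12.5% of all tested genes that were lower DEGs. CG (−2.21 ± 1.52) and GATA2 (−0.25 ± 0.43) were not DEGs, although CG became 1, at −7.71, without MHPJ replicate 2, the only MHPJ library with reads of CG. FSHB had 1 read in each of MHPJ and MHLBJ, TSHB had 0 in both, and SF-1 had 9 against 6. In adults, CG was the only DEG of the 3 genes tested between MHPA and MHLBA, higher by 10.01 ± 2.70 (adjusted p = 0.0523), against 14.3% of all tested genes. Of all DEGs of that comparison 52.8% were higher in the pituitary, and 70% without TMM normalization. ESR1 differed by 2.56 ± 1.29 and GATA2 by 0.27 ± 0.60. Without MHPA replicate 3 CG was at 9.36. Without MHPA replicate 1, 7 of the 8 genes were DEGs, against 14.6% of all tested genes, and ESR1 was higher in MHPA by 3.14 ± 0.34 (adjusted p = 0.00932). The 5 genes not tested in the full fit reached its filter level in no MHLBA library, so that this count follows partly from the filter.

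**Figure D5:**
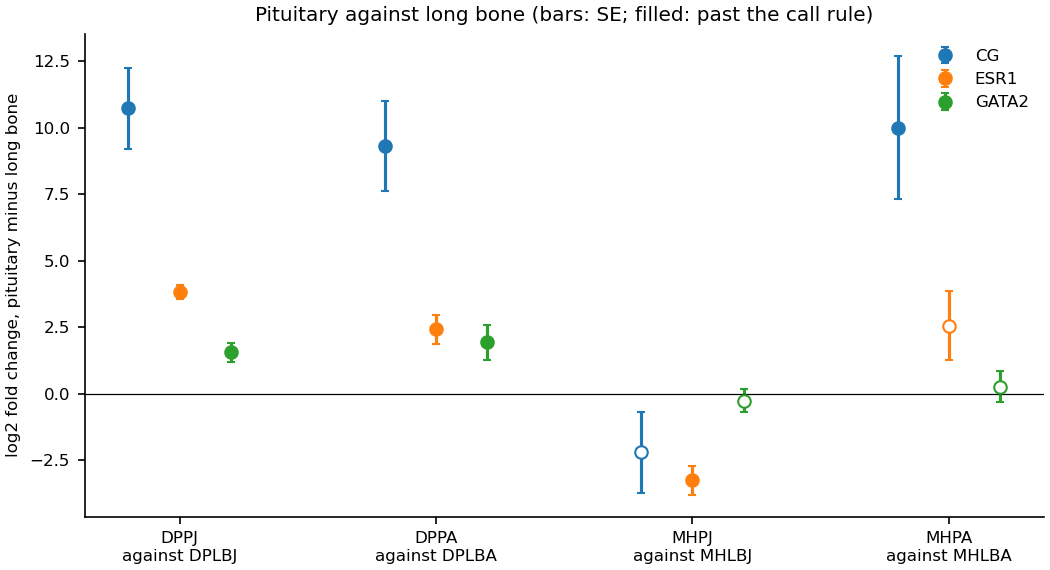
Log2 fold change of CG, ESR1 and GATA2 between the pituitary and the long bone of each breed and stage (pituitary minus long bone), with the SE of the fit; filled symbols were DEGs. ESR1 was higher in the pituitary in DPPJ (3.82) and DPPA (2.42) and lower in MHPJ (−3.26), whose libraries held few reads of anterior lobe genes.

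The genes whose profile over the 12 pituitary libraries was closest to each of the 8 were found by the root-mean-square (RMS) difference of centred log2 CPM among 13526 genes with a symbol. FSHB was closest to POU1F1 (0.84), GHRHR, the receptor of growth hormone releasing hormone (1.01), and NEUROD4, a neurogenic factor (1.75), while its own SD over the libraries was 5.32. CG was closest to DLK1 (1.21), POMC (1.42) and GH (1.57), and on log2(RPKM + 1) these 3 genes were found again. The closest genes of TSHB were RAB27A (1.28), SF-1 (1.35) and NR0B1, a nuclear receptor that acts with SF-1 (1.37), with no hormone gene among these 3. TRHR was closest to KCNJ5, a potassium channel (0.61), ESR1 (0.85) and GHSR, the ghrelin receptor (0.86). SF-1 was closest to GHSR (0.59), CHRNA9 (0.61) and NR0B1 (0.62), and ESR1 to GHSR (0.6), VSIG1 (0.64) and KCNJ5 (0.65). GATA2, with an SD of 1.23, was closest to SPATA4 (0.54), UNC5CL (0.55) and PGF (0.56). GNRHR, with an SD of 2.0 and few reads, was closest to GNB3 (0.40) and 2 small RNA genes. Of the 3 closest genes, log2(RPKM + 1) gave 2 again for FSHB, 1 for TRHR and GATA2 and 0 for TSHB, GNRHR, SF-1 and ESR1. Except for GATA2, where DPPA replicate 1 (5.8 RPKM) lay above DPPA replicate 2 (4.93 RPKM), these profiles share the split between libraries rich and poor in anterior lobe RNA. The likeness is a description.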

How the data were processed

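Library depth, groups and gene identity were taken from the labels and both deposited tables. The authors depleted ribosomal RNA, made directional libraries, mapped the reads to the EquCab 3.0 horse genome and deposited whole read counts per gene and RPKM values, which are scaled by gene length and reads. The labels name bcl2fastq, TopHat2 and edgeR, and the methods name other tools for trimming and quantification, so the counting tool is not certain. In DPLBA replicate 2, RPKM departed from the counts by over 2% for 294 of 10842 genes with at least 100 reads, and none of the 8 had that many reads there. The 8 genes and the gene lists were chosen with earlier results of these data known.

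Counts were analysed with edgeR 4.0.16 in R 4.3.3 between pairs of groups (glmQLFit and glmQLFTest, TMM, filterByExpr with a minimum count of 10) over all genes, with Benjamini-Hochberg adjustment; a DEG changed more than 2-fold with P under 0.05 before adjustment. Where a group held 0 reads the fold is a lower bound (3 reads per library), and with 1 to 3 reads a ratio with an exact 95% binomial interval. Alternatives used limma 3.58.1 and DESeq2 1.42.0. Named genes are the 8, the 3 list genes with the largest change among DEGs of each list and comparison, marker genes where a library stood apart, and the 3 closest profiles. LHB, FOXL2, PGR and GPHB5 were found by description. Some list genes that the rule would name are not reported here. Same-numbered libraries of DPPA and MHPA come from different horses. They deviated together (r = 0.64, 0.53 and 0.35 across 14376 genes), so the blocked fit stands beside that result. Every other pair of groups had at least 1 number at 0.1 or lower. Promoter and protein sequences were not used here.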

Additional observations from a re-analysis of the deposited data

Results flagged for a closer look

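The breed difference (DP minus MH) differed between juveniles and adults in the pituitary for 7 of the 8 genes, by edgeR's test of that difference over 12 libraries at more than 2-fold and P under 0.05 before adjustment. The differences on the log2 scale were 14.46 for FSHB, 13.03 for CG, 10.67 for TSHB, 5.98 for GNRHR, 6.34 for TRHR, 7.14 for SF-1 and 6.45 for ESR1. For FSHB, TSHB and GNRHR these are fitted values against 0 to 2 reads in MHPJ. No adjusted p was under 0.05 by edgeR over all 12 libraries, while DESeq2 gave 6 of the 7 under 0.05. The MHPJ libraries, on which each of the 7 rests, also had 0 to 41 reads of GH and 5286 to 7099 summed RPKM of the posterior lobe, glial and nerve markers, and their part in the result was not tested.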

How the results depend on the processing

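Alternatives covered no TMM scaling, RLE size factors, no filter on low counts, DESeq2, a replicate block, all libraries in 1 fit, limma on log2(RPKM + 1) and log2(RPKM + 0.1), an adjusted p, and each library left out. The count of DEGs among the 8 stayed at 8 for DPPJ against MHPJ under all but the adjusted p (7). Without a filter it was 7 for MHPJ against MHPA, 8 for DPPA against DPLBA and 6 for MHPA against MHLBA, and with all libraries 7, 8 and 7, since more genes were then tested. It was 1 for DPLBJ against MHLBJ without TMM and with all libraries. limma with 1 added gave 2 for DPPJ against DPPA and 1 for MHPJ against MHPA; with 0.1 added, 1 for MHPJ against MHPA, 2 for MHPJ against MHLBJ and 0 for MHPA against MHLBA. DESeq2 gave 2 for MHPA against MHLBA. By adjusted p it was 0 for MHPJ against MHPA, MHPA against MHLBA and the pituitary difference between stages. The replicate block gave 2 for DPPA against MHPA, whose same-numbered libraries come from different horses but deviated together. Without DPPA 1 and MHPA 1 it was also 2. The block also gave 1 for MHPJ against MHPA and 0 for MHPA against MHLBA. With 1 library left out the counts were 0 to 1 for DPPJ against DPPA, 2 to 7 for MHPJ against MHPA, 1 to 2 for MHPJ against MHLBJ, 4 to 8 for DPPA against DPLBA, 1 to 7 for MHPA against MHLBA and 5 to 7 for the pituitary difference between stages. For MHPA against MHLBA it was 3 or 4 without 1 MHLBA library. The causes were not tested beyond the number of genes or libraries used.

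With each library left out in turn, 426 log2 fold changes kept their side and direction, 3 gained and 15 lost the call and 36 reversed. Under the other alternatives 520 kept their side and direction, 11 gained and 8 lost the call and 17 reversed, and none of the 17 was a DEG in the reported fit. Reversed values were, for DPPA against MHPA, CG −0.014 without TMM, SF-1 0.17 and ESR1 0.55 with the block, and SF-1 0.22 and ESR1 0.60 with limma (0.1 added). For DPPJ against DPPA they were TSHB 2.62 with the block, 1.35 and 2.55 with limma (1 and 0.1 added), and GATA2 0.037 and 0.070 with limma. For DPLBJ against MHLBJ they were GATA2 −0.090 without TMM and −0.019 and −0.029 with limma, and CG −0.46 with the block and −0.28 and −1.12 with limma. GATA2 of DPLBJ against DPLBA was 0.00049 with DESeq2. With 1 library left out, the ranges that crossed 0 were, for DPPA against MHPA, FSHB −2.12 to 0.033, CG −0.59 to 0.86, TSHB −4.67 to 1.52, SF-1 −1.0 to 0.40 and ESR1 −0.94 to 0.15; for DPPJ against DPPA, TSHB −0.75 to 3.73, TRHR −0.42 to 0.48 and GATA2 −0.79 to 0.73. In the long bone they were, for DPLBJ against MHLBJ, CG −1.52 to 1.15 and GATA2 −0.047 to 0.28; for DPLBA against MHLBA, CG −0.35 to 1.36 and ESR1 −0.40 to 0.049; for DPLBJ against DPLBA, CG −1.91 to 1.04 and GATA2 −0.23 to 0.097; for MHLBJ against MHLBA, CG −0.47 to 0.81 and ESR1 −0.16 to 0.59. GATA2 ran from −0.67 to 0.077 for MHPJ against MHLBJ, −0.37 to 0.68 for MHPA against MHLBA and −0.16 to 1.64 for the pituitary difference between stages, and CG from −2.42 to 0.54 for that of the long bone.

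Scaling by library totals in place of TMM shifted the median of all genes from −0.01 to −0.22 (DPPA against MHPA), −0.03 to 0.13 (DPPJ against DPPA), 0.05 to −0.17 (DPLBJ against MHLBJ) and −0.03 to 0.33 (DPPJ against DPLBJ), and the share of DEGs that were higher from 59.9% to 27.3%, 26.1% to 51.3%, 60.3% to 42.5% and 49.7% to 64.3%. The median also moved from 0.01 to −0.13 (MHPJ against MHPA), −0.03 to 0.15 (MHLBJ against MHLBA), 0.01 to 0.17 (DPPA against DPLBA), 0 to 0.36 (MHPA against MHLBA), and −0.04 to 0.24 and 0.07 to −0.17 for the difference between stages in the pituitary and the long bone. The share of higher DEGs moved from 50.2% to 39.6% for DPLBJ against DPLBA, 26.2% to 40.9% for MHLBJ against MHLBA and 61% to 46.1% for the long bone difference between stages. Few reads limit GNRHR, which never exceeded 56 reads in a library, while TRHR reached 626 and TSHB 535 reads in MHPA. The planned search of promoters for motifs was not run.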
